A study of Homo sapiens with 6 samples.

Results

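Metallothionein and zinc-handling genes were followed in HCT116, a human colon carcinoma cell line. The set held 10 genes, chosen by symbol from the 46427 genes of the count table: the metallothioneins *MT2A*, *MT1E*, *MT1X*, *MT1F* and *MT1G*, the transcription factor *MTF1*, the exporter *SLC30A1* and the importers *SLC39A4*, *SLC39A6* and *SLC39A10*. Parental cells with wild type *ZKSCAN3* (*ZK3*-WT) were compared with *ZKSCAN3* knockout cells (*ZK3*-KO), in which CRISPR/Cas9 was aimed at the first exon. Both were grown without further treatment in DMEM containing FBS, and RNA of 3 replicates per genotype was sequenced from stranded libraries of polyadenylated RNA. The knockout line came from puromycin and single-cell selection, and how many clones the libraries represent is not given in the sources used here. The methods call the replicates biological without naming separate cultures, so p-values measure the spread between these samples, which may be technical.

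Metallothioneins are small cysteine-rich proteins that bind zinc, copper and cadmium. When free zinc in the cell rises, MTF1 binds metal response elements in DNA and activates metallothionein genes and *SLC30A1*, whose product carries zinc out of the cell. Proteins of the SLC39 (ZIP) family carry zinc into the cytosol, and in the intestine SLC39A4 takes up dietary zinc. *SLC39A10* is known as a gene that is repressed when zinc is plentiful.

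The 5 metallothionein members lie within 75.6 kb of chromosome 16 in GRCh37, between 56642496 and 56718108, and the annotation places 16 metallothionein loci on this chromosome. *MT2A* (NCBI Gene 4502) spans 56642496 to 56643409, *MT1E* (4493) 56659387 to 56661024, *MT1F* (4494) 56691643 to 56694610 and *MT1X* (4501) 56716382 to 56718108, all on the forward strand, while *MT1G* (4495) spans 56700642 to 56701977 on the reverse strand. *MTF1* (4520) and *SLC30A1* (7779) lie on the reverse strand of chromosome 1, from 38275246 to 38325264 and from 211744910 to 211752503. *SLC39A10* (57181) lies on the forward strand of chromosome 2 from 196440701 to 196602426.

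The coding sequences of the metallothioneins are shown because their likeness can limit how surely a short match is given to 1 gene. They are printed 5′ to 3′ from the GENCODE transcripts for GRCh37 without the stop codon, and capitals mark bases that differ from *MT2A* or are inserted relative to it.
MT2A: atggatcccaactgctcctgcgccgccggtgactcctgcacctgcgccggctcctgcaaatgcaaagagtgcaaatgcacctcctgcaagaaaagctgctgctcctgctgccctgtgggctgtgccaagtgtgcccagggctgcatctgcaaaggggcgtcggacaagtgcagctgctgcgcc
MT1E: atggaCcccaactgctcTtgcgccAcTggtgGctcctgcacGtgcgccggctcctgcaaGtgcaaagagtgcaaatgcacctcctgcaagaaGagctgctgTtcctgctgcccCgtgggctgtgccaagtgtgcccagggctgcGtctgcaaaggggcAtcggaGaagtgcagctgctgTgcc
MT1X: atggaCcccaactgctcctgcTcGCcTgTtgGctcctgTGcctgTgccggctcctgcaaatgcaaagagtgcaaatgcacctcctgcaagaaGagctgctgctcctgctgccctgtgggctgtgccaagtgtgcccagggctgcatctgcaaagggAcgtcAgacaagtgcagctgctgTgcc
MT1F: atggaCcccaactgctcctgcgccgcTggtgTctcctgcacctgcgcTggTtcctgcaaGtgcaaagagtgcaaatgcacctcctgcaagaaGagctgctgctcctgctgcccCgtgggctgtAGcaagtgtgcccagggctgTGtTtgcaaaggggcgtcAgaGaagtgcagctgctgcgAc
MT1G: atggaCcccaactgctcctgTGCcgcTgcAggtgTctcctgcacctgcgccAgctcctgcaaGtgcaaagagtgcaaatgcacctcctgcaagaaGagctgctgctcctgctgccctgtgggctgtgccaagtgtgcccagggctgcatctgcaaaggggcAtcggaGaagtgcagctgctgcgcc
*MT1E* and *MT1X* each differed from *MT2A* by 14 substitutions over 183 bases, *MT1F* by 16, and *MT1G* by 9 substitutions and 3 inserted bases. Identity between pairs was between 88.5% and 93.5%. No window of 100 bases of a member transcript occurred unchanged in a transcript of another metallothionein locus. Windows of 50 bases did so for 4.55% of those of *MT2A*, 5.34% of *MT1E*, 6.12% of *MT1F*, 18% of *MT1X* and 19.9% of *MT1G*. The longest run shared by *MT2A* with *MT1E* was 32 bases, and the longest between any 2 members, that of *MT1X* and *MT1G*, was 96 bases. Counts of single metallothionein genes, of *MT1X* and *MT1G* in particular, may therefore be less certain than their sum. This concerns matches over fewer than 100 bases, and the methods name paired-end fragments longer than that. The handling of reads that match several copies is not given in the sources used here.

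Promoters of *MT2A*, *MT1X* and *SLC30A1* are shown because MTF1 is known to act on such genes through metal response elements. The 250 bases before the transcription start, as given by RefSeq for GRCh38.p14, were searched on both strands for the core of the metal response element, spelled TGCACNC or TGCGCNC, and matches are in capitals.
MT2A promoter, chr16:56608334-56608583, forward strand: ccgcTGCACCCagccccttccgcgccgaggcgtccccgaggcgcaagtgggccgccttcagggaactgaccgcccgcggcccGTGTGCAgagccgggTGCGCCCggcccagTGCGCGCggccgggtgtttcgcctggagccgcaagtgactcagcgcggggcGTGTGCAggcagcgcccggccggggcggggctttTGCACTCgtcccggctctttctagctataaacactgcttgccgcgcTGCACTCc
MT1X promoter, chr16:56682220-56682469, forward strand: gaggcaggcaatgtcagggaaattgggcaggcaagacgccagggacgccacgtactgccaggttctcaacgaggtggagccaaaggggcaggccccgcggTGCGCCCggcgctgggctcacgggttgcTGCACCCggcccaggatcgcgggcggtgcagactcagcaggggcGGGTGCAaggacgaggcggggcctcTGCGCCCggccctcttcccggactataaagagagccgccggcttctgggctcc
SLC30A1 promoter, chr1:211579162-211579411, reverse strand: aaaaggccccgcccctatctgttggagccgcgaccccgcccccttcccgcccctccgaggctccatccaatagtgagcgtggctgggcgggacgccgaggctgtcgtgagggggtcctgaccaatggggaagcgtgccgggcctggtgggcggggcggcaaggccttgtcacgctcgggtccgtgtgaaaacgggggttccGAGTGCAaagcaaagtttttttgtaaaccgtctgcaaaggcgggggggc
The *MT2A* window held 7 matches, 5 of them in the direction of the gene, and none overlapped another. At least 7 matches were found in 0.0313% of the 35116 promoter windows of the table. The *MT1X* window held 4 matches, and 0.37% of windows held at least as many. *SLC30A1* and *SLC39A6* had 1 match each, where 24.8% of windows had at least 1, and neither *MTF1* nor the 2 starts of *SLC39A10* had one. The search covered 6 of the 10 members, and *MT1E*, *MT1F*, *MT1G* and *SLC39A4* were not analysed here for promoter sequence.

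**Figure D1:**
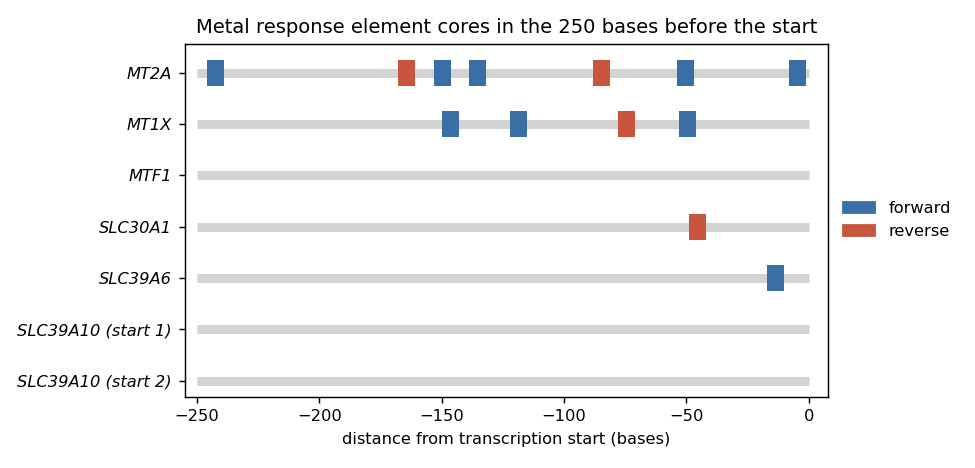
Matches to the metal response element core in the 250 bases before each transcription start, with distance from the start in bases on the horizontal axis and 1 line per start. Blue boxes run in the direction of the gene and red boxes against it; *MT2A* has 7 boxes, *MT1X* 4, *SLC30A1* and *SLC39A6* 1 each, and the other lines none.

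Between 60827060 and 69739215 reads were counted per library. Counts were normalized with TMM factors and are given as CPM, reads scaled to the normalized library size, and 18366 genes were compared with edgeR's quasi-likelihood test, with p-values adjusted over all of them to a false discovery rate (FDR). Of 8 epithelial markers, 7 were at 1 CPM or more in every library, and their summed level was 3104 to 3904 CPM in *ZK3*-WT and 2807 to 5625 CPM in *ZK3*-KO libraries, while the leukocyte markers *PTPRC* and *CD3E* were at 0 reads in all libraries. Summed levels were 44.8 to 57.0 and 32.8 to 99.3 CPM for 6 fibroblast markers, mostly *COL1A1*, 3.21 to 10.7 and 1.85 to 8.51 CPM for 6 leukocyte markers, and 1.48 to 2.40 and 0.851 to 2.50 CPM for 4 endothelial markers, wild type first, and their part in the results was not tested. *ZKSCAN3* itself gave 19.8 to 28.1 CPM in *ZK3*-WT and 13.6 to 25.4 CPM in *ZK3*-KO libraries (log2 fold change -0.16, edgeR FDR 0.797), and counts per gene do not show the edited bases. *ZK3*-KO replicate 3 stood apart, with correlations across genes of 0.973 and 0.961 with *ZK3*-KO replicates 1 and 2, which had 0.993 between them, and of 0.978 with *ZK3*-WT replicate 3, the highest of its 5 values, so results are given with and without it. It was the highest of the 6 libraries for 28.8% of tested genes and the lowest for 27.5%.

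None of the 9 members with enough reads for a test differed between the genotypes at an FDR of 0.05, where 2.05% of all 18366 genes did. At an unadjusted p under 0.05 there was 1 member, *SLC30A1*, against 18.4% of all genes, and DESeq2 called none of the 9. The median log2 fold change was -0.14 over the 9 members and 0.018 over all genes. Without *ZK3*-KO replicate 3, 1 member, *SLC39A10*, met the edgeR threshold of FDR 0.05, and it was higher in *ZK3*-KO cells, where 15.1% of 18872 genes were called and 7.41% were called higher. Values per library are listed in the order of replicates 1, 2 and 3 throughout. In bulk RNA, fewer cells expressing a gene and less RNA per cell cannot be told apart.

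Per transcript length, *MT2A* was the most abundant member. In the deposited TPM values it had 1272 ± 381 TPM (SD, n = 3) in *ZK3*-WT cells and 1245 ± 780 TPM (SD, n = 3) in *ZK3*-KO cells. *MT1E* came next with 595 ± 166 and 518 ± 234 TPM (SD, n = 3 each). *MT2A* exceeded *MT1E* in every library by a ratio between 1.90 and 2.71 in TPM. *SLC39A6* had 83.6 ± 6.60 and 69.2 ± 24.0 TPM, *MT1X* 81.5 ± 18.6 and 52.5 ± 8.23 TPM, and *SLC39A4* 58.4 ± 8.20 and 52.1 ± 8.37 TPM (SD, n = 3 each, *ZK3*-WT first). The levels of these 3 genes overlapped between neighbours in that order. *SLC39A10* had 19.1 ± 5.29 and 25.2 ± 16.3 TPM, *MTF1* 12.8 ± 0.62 and 10.7 ± 1.63 TPM, *SLC30A1* 13.1 ± 1.07 and 8.87 ± 1.94 TPM, and *MT1F* 7.94 ± 2.22 and 7.95 ± 0.27 TPM (SD, n = 3 each). In *ZK3*-WT cells *MTF1* and *SLC30A1* lay within each other's spread, both below *SLC39A10* on average and above *MT1F*. *MT1G* was at 0 in all 6 libraries.

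**Figure D2:**
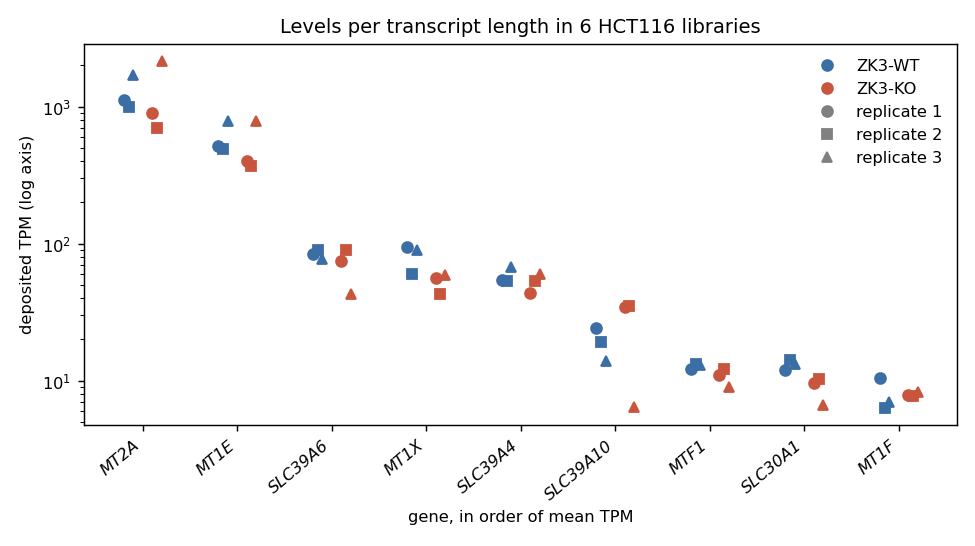
Deposited TPM of the 9 detected members on a log axis, with 1 point per library, blue for *ZK3*-WT and red for *ZK3*-KO, and the marker shape for the replicate. *MT2A* and *MT1E* sit above all other members in every library, with means of 1272 and 595 TPM in *ZK3*-WT cells.

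Together the metallothioneins took between 0.0216% and 0.0659% of the reads of a library. Their summed level was 340, 295 and 503 CPM in the wild type and 268, 218 and 724 CPM in the knockout. *ZK3*-KO replicates 1 and 2 lay below every *ZK3*-WT library, and *ZK3*-KO replicate 3 lay above every other library. With the counts of the 5 genes summed before the fit, the log2 fold change was 0.088 with an SE of 0.46. It was -0.64 without *ZK3*-KO replicate 3. *MT2A* made up between 62.5% and 66.0% of the metallothionein TPM in the 5 other libraries and 71.4% in *ZK3*-KO replicate 3. The share of *MT1E* was between 29.3% and 33.0% in those 5 libraries and 26.3% in *ZK3*-KO replicate 3, so the composition of this family as well as its total was at an extreme there.

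*MT2A*, the main metallothionein of most human cells, gave 215, 184 and 327 CPM in the wild type. The knockout libraries gave 174, 134 and 512 CPM. Replicate 3 was the highest within both genotypes, a pattern found in 22.2% of all tested genes, and the genotypes overlapped. The means were 242 ± 75.1 and 273 ± 208 CPM (SD, n = 3 each), and the log2 fold change was 0.18 (SE 0.50, edgeR FDR 0.886). The direction turned without *ZK3*-KO replicate 3 (-0.65, FDR 0.0993) and with the replicate number as a block (-0.042, FDR 0.942). Against the mean of *ZK3*-KO replicates 1 and 2, replicate 3 was higher by 1.74 on the log2(CPM + 1) scale, a difference that 1.2% of genes reached or exceeded.

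*MT1E* followed *MT2A*. It gave 104, 98.3 and 157 CPM in the wild type and 81.4, 73.8 and 196 CPM in the knockout. *ZK3*-KO replicate 3 was again the highest and *ZK3*-KO replicates 1 and 2 the lowest of the 6. The log2 fold change was -0.036 (SE 0.39, edgeR FDR 0.973) and -0.62 without *ZK3*-KO replicate 3 (FDR 0.0745). *ZK3*-KO replicate 3 exceeded the mean of *ZK3*-KO replicates 1 and 2 by 1.33 on the log2(CPM + 1) scale, which 2.52% of genes reached or exceeded.

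*MT1X* had no such high value in *ZK3*-KO replicate 3. It gave 18.3, 11.3 and 17.4 CPM in the wild type and 10.8, 8.37 and 14.1 CPM in the knockout. In each numbered pair the *ZK3*-KO library was lower, although *ZK3*-KO replicate 3 lay above *ZK3*-WT replicate 2. In TPM, where *ZK3*-WT libraries had 94.3, 60.3 and 90.1 and *ZK3*-KO libraries 55.8, 43.1 and 58.5, the genotypes did not overlap. The shares of all genes that did not overlap in TPM, or that were lower in each numbered pair, were not computed. With limma on log2(TPM + 1) the median log2 fold change of all genes was -0.082. For *MT1X* the log2 fold change was -0.50 in edgeR (SE 0.27, edgeR FDR 0.373). It was -0.70 without *ZK3*-KO replicate 3 (FDR 0.0783) and -0.33 without *ZK3*-KO replicate 2 (FDR 0.586).

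*MT1F* was detected at a low level. It had between 91 and 139 reads in a library, which gave 2.21, 1.30 and 1.49 CPM in the wild type and 1.65, 1.66 and 2.17 CPM in the knockout. The knockout values lay within the wild type range, and the log2 fold change was 0.13 (SE 0.30, edgeR FDR 0.853). *MT1G* had 0 reads in each library, where a count of 0 allows up to 3 reads, or 0.0428 to 0.0485 CPM, by counting error only. Of 14 further metallothionein genes and pseudogenes, 12 were found in the table, 8 of them had 0 reads in all libraries, and only *MT1DP* passed the expression filter, at 0.27 ± 0.10 and 0.27 ± 0.25 CPM (SD, n = 3 each). Among the metallothionein loci, reads were thus concentrated on *MT2A*, *MT1E* and *MT1X*.

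**Figure D3:**
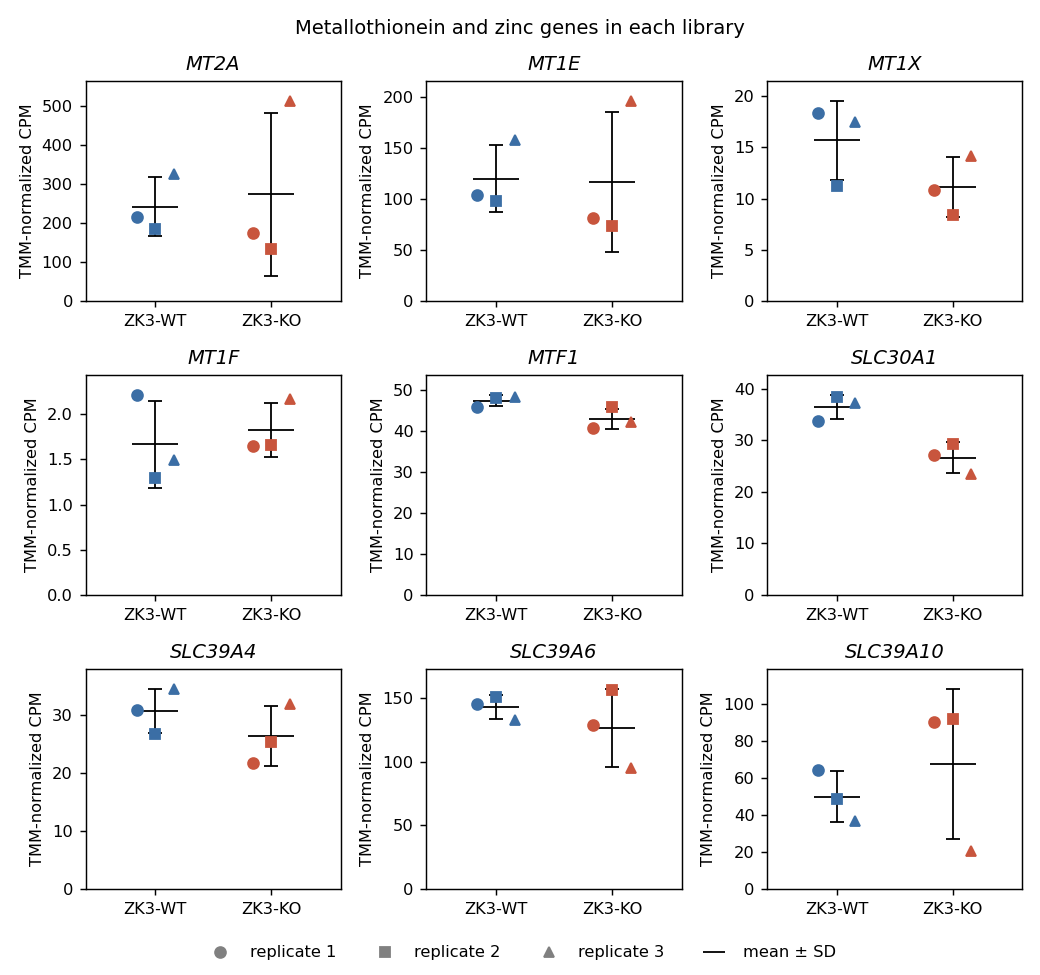
TMM-normalized CPM of the 9 detected members, with 1 panel per gene, 1 point per library (circle, square and triangle for replicates 1, 2 and 3) and the mean ± SD of each genotype in black; each vertical axis starts at 0. The *ZK3*-KO triangle is far from the other *ZK3*-KO points for *MT2A* (512 CPM), *MT1E* (196 CPM) and *SLC39A10* (20.6 CPM), and *SLC30A1* is lower in every *ZK3*-KO library.

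*MTF1*, the zinc sensor that activates metallothionein transcription, varied little. It gave 45.8, 48.0 and 48.4 CPM in the wild type and 40.8, 45.7 and 42.3 CPM in the knockout. In CPM every *ZK3*-KO library was below every *ZK3*-WT library by a narrow margin, whereas in TPM the genotypes overlapped, with 12.2 in *ZK3*-KO replicate 2 and 12.1 in *ZK3*-WT replicate 1. Its log2 fold change was -0.14 (SE 0.13, edgeR FDR 0.604), about the size of its SE. It was between -0.25 and -0.099 in the 14 alternative fits, with no FDR under 0.05.

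*SLC30A1* encodes the zinc exporter of the plasma membrane and is itself a target of MTF1. It gave 33.8, 38.3 and 37.2 CPM in the wild type and 27.2, 29.3 and 23.5 CPM in the knockout. The 3 *ZK3*-KO libraries were all lower than the *ZK3*-WT libraries, with means of 26.7 ± 2.92 against 36.4 ± 2.37 CPM (SD, n = 3 each). Of the 9 tested members, *MTF1* and *SLC30A1* had this arrangement in CPM, as did 13.8% of all tested genes. None of the 9 had all knockout libraries above the wild type, as 12.7% of all genes did, so 2 of 9 did not overlap, against 26.6% of all genes. The log2 fold change of *SLC30A1* was -0.45 (SE 0.15, edgeR FDR 0.178), which missed the threshold, and the alternatives gave FDR values from 0.0963 to 0.523. *SLC30A1* was the lowest in *ZK3*-KO replicate 3, the library in which *MT2A* and *MT1E* were the highest.

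*SLC39A10* encodes a zinc importer and had the widest spread of the transporters among the members. It gave 64.3, 48.5 and 36.8 CPM in the wild type and 90.3, 92.0 and 20.6 CPM in the knockout. *ZK3*-KO replicates 1 and 2 were above all *ZK3*-WT libraries and *ZK3*-KO replicate 3 was below all of them, whereas *MT2A* was lowest in the former and highest in the latter. Replicate 3 was the lowest within both genotypes, as for 21% of all tested genes. With all libraries the log2 fold change was 0.44 (SE 0.51, edgeR FDR 0.701), and it was 0.20 with the replicate number as a block (FDR 0.751) and 0.10 with limma on log2(TPM + 1) (FDR 0.956). Without *ZK3*-KO replicate 3 it was 0.88 (SE 0.21, FDR 0.0243). This library differed from the mean of the other *ZK3*-KO libraries by -2.09 on the log2(CPM + 1) scale, and 0.223% of genes were at or below this value.

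*SLC39A6* (NCBI Gene 25800, reverse strand of chromosome 18 in GRCh37, 33688494 to 33709348) encodes a zinc importer of the same subfamily as SLC39A10. It gave 145, 151 and 132 CPM in the wild type. The *ZK3*-KO libraries had 129, 156 and 95.0 CPM. They reached both above and below the *ZK3*-WT libraries, with the lowest value in *ZK3*-KO replicate 3. The fit gave a log2 fold change of -0.17 (SE 0.20, edgeR FDR 0.700) and 0.0031 without that library (FDR 0.991).

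*SLC39A4* (NCBI Gene 55630, reverse strand of chromosome 8 in GRCh37, 145635126 to 145642228) encodes the intestinal zinc importer. It gave 30.8, 26.8 and 34.5 CPM in the wild type and 21.8, 25.4 and 32.0 CPM in the knockout. The *ZK3*-KO library was lower in each numbered pair, but the genotypes overlapped, and the share of all genes with such pairs was not computed. The fitted difference was -0.22 on the log2 scale (SE 0.19, edgeR FDR 0.589), and it was between -0.37 and -0.092 in the alternatives.

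**Figure D4:**
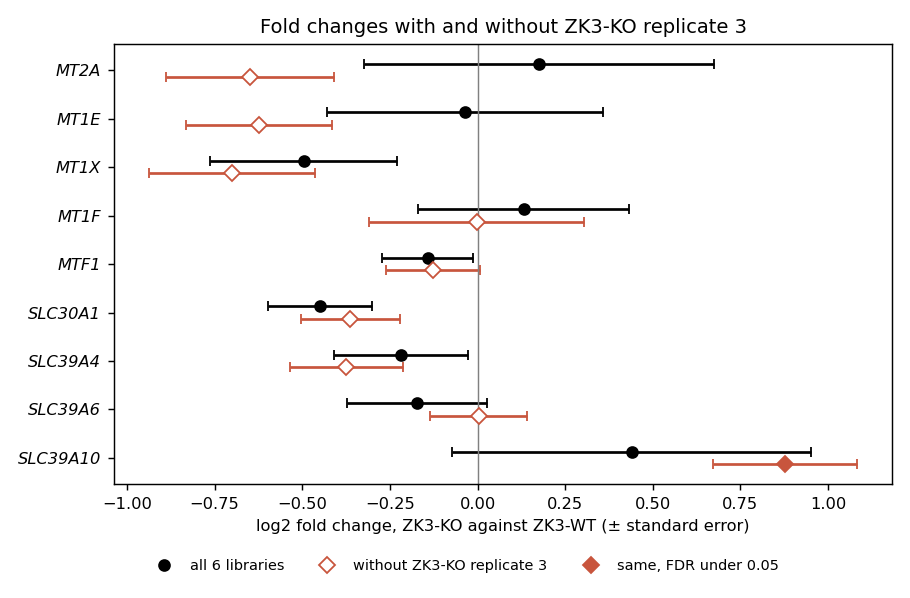
Log2 fold change of *ZK3*-KO against *ZK3*-WT for the 9 tested members with standard errors as bars, from all 6 libraries (black circles) and without *ZK3*-KO replicate 3 (red diamonds, filled at an FDR under 0.05). *MT2A* moves from 0.18 to -0.65 and *SLC39A10*, the only filled diamond, from 0.44 to 0.88.

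*MT2A* and *SLC39A10*, the tested members in which *ZK3*-KO replicate 3 lay furthest from the other *ZK3*-KO libraries, are set side by side per library. On the log2(CPM + 1) scale relative to the *ZK3*-WT mean, *MT2A* was at -0.43, -0.81 and 1.12 in *ZK3*-KO replicates 1, 2 and 3, and *SLC39A10* was at 0.88, 0.91 and -1.20. In *ZK3*-WT replicate 3 the values were 0.48 for *MT2A* and -0.39 for *SLC39A10*, so the same opposite signs were seen in both libraries numbered 3. *ZK3*-WT replicates 1 and 2 had -0.13 and -0.35 for *MT2A* and 0.40 and -0.0029 for *SLC39A10*. In *ZK3*-WT replicate 2 the signs were thus not opposite. *SLC30A1* had a small value of 0.032 in *ZK3*-WT replicate 3 and -0.61 in *ZK3*-KO replicate 3. The libraries numbered 3 had 68635701 and 67944123 reads, within the range of the others.

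**Figure D5:**
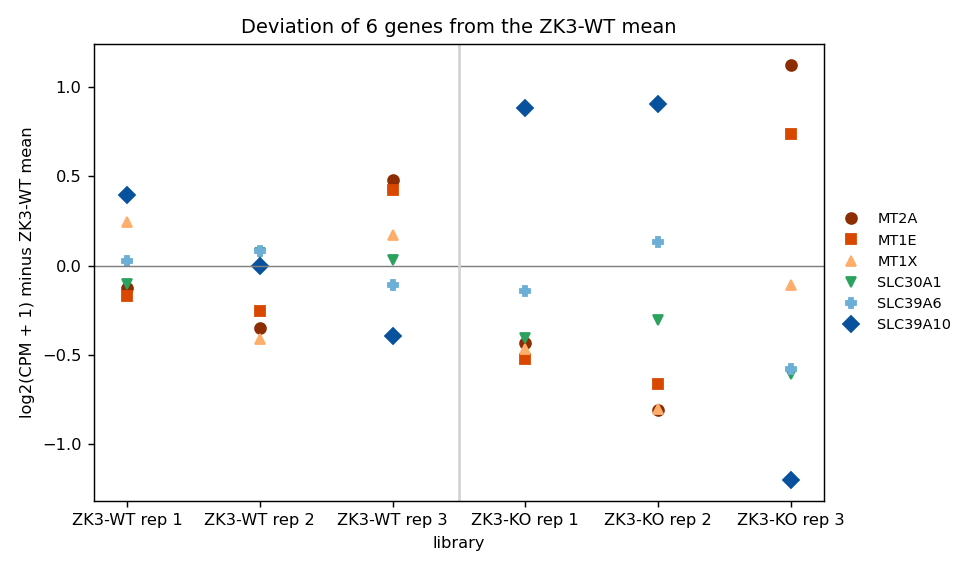
Log2(CPM + 1) of 6 members minus their *ZK3*-WT mean, with 1 column per library and 1 marker per gene. *MT2A* and *MT1E* are at the top (1.12 and 0.73) and *SLC39A10* at the bottom (-1.20) in *ZK3*-KO replicate 3, whereas in *ZK3*-KO replicates 1 and 2 *SLC39A10* is at the top (0.88 and 0.91).

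The genes whose deviations over the 6 libraries were most like those of *MT2A*, among the 13141 genes averaging 1 or more in log2 CPM, were *FLYWCH1*, *MXD1*, *ARTN*, *STX1A* and *SYNE3*. Their root-mean-square differences from *MT2A* were 0.0733, 0.114, 0.116, 0.116 and 0.125 in log2 units. For *SLC39A10* they were *DCK*, *ASPM*, *KNL1*, *RBL1* and *FAM102B*, with differences from 0.0995 to 0.120. They were picked for their likeness to genes with an extreme value in *ZK3*-KO replicate 3, so by this choice all 10 had theirs there, from 18.4 CPM for *ARTN* to 211 CPM for *FLYWCH1* on the high side, and from 7.83 CPM for *RBL1* to 38.4 CPM for *ASPM* on the low side.

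The remaining zinc transporters were examined as families. Of 10 further genes of zinc export (9 SLC30 genes and *TMEM163*), 6 were tested, 0 met the edgeR threshold of FDR 0.05, 0 had an unadjusted p under 0.05, and the median log2 fold change was -0.18. The most abundant per length were *SLC30A9* and *SLC30A5*, with mean TPM over all libraries of 45.6 and 34.6 and log2 fold changes of -0.052 and -0.018. The largest differences were those of *SLC30A4* (-0.31, FDR 0.492) and *SLC30A7* (-0.30, edgeR FDR 0.448). Of 11 further SLC39 genes, 8 were tested, 1 was higher and 0 lower in *ZK3*-KO cells at an FDR of 0.05, against 0.817% and 1.23% of all genes, and their median was 0.11.

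The 1 transporter past the threshold was *SLC39A9*, which encodes a zinc transporter of the secretory pathway and lies on chromosome 14 of GRCh37 from 69864732 to 69929107. It gave 116, 107 and 111 CPM in the wild type and 182, 182 and 176 CPM in the knockout. The genotypes were well apart, and *ZK3*-KO replicate 3 was close to the other *ZK3*-KO libraries, unlike for *MT2A* or *SLC39A10*. This was a log2 fold change of 0.69 (SE 0.13, edgeR FDR 0.0462). It kept its direction in all 14 alternatives, between 0.53 and 0.72, but passed in 4 of them and in none of the fits that left out a wild type library or knockout replicate 1 or 2, with an FDR of up to 0.262 and of 0.0660 with the replicate number as a block. Other genes of chromosome 14 were part of the same fit but were not set apart by position here. Whether the change was particular to *SLC39A9* or shared with neighbouring genes was therefore not tested. *SLC39A7* and *SLC39A14*, the most abundant of the family per length with mean TPM of 168 and 104, had log2 fold changes of 0.15 and -0.30 (FDR 0.788 and 0.563).

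Of 12 metal- or zinc-responsive genes outside these families, all 12 were tested, 0 met the edgeR threshold of FDR 0.05, and the median log2 fold change was 0.29. An unadjusted p under 0.05 was found for 5 of them, against 18.4% of all genes, namely *HSPA1A*, *HSPA1B*, *PGF* and *HMOX1* with positive and *SLC7A11* with a negative fold change, named after their values were seen. *HSPA1A* and *HSPA1B*, heat shock genes that cadmium and other metals induce and whose reads are hard to tell apart because the copies are nearly identical, had log2 fold changes of 1.52 and 1.56 (FDR 0.110 and 0.108). All knockout values of both genes were above the wild type, as for 12.7% of all genes. Without *ZK3*-KO replicate 3, where 15.1% of all genes were called, 3 of the 12 were called: *HSPA1A* and *HSPA1B* at 1.81 and 1.84 (edgeR FDR 0.00693 and 0.00717), and in the other direction *SLC7A11*, which encodes a cystine transporter, at -1.34 (edgeR FDR 0.0380). With all libraries *SLC7A11* was at -1.05 (edgeR FDR 0.219). *TXNRD1* and *SELENOW*, which encode a thioredoxin reductase and a selenoprotein and were the most abundant per length of this list with mean TPM of 342 and 179, had log2 fold changes of 0.22 and 0.34 (FDR 0.797 and 0.434).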

How the data were processed

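RNA of 3 *ZK3*-WT and 3 *ZK3*-KO replicates was sequenced by the authors, who aligned reads with Bowtie 2 in Partek Flow to hg19 (Bowtie2 2.2.5 in the submitters' processing notes). The methods name an Ensembl annotation, whereas the table lists NCBI Gene identifiers. The authors deposited 1 table of raw read counts per gene, without normalization. They also deposited TPM values, scaled by transcript length, which were used for levels per length and 1 alternative, and deposited FPKM values, which were not used.

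Counts were analysed with R 4.3.3, edgeR 4.0.16 and limma 3.58.1: filterByExpr, TMM factors, and the quasi-likelihood test with genotype as the only factor, Benjamini-Hochberg adjustment over all tested genes and a threshold of 0.05. Replicates differed beyond sampling noise (chi-square per degree of freedom from 41.5 to 543). Depth was 60827060 to 69739215 reads per library. The members and lists were chosen with earlier results of these data known. Named genes were the members, *ZKSCAN3*, listed genes past the threshold, the 2 largest changes and 2 highest TPM of each list, and the 5 nearest profiles to *MT2A* and *SLC39A10*. Of the listed genes, *MT1CP*, *MT1P3* and *MT-CO1* were not found by symbol. The scripts were tested on simulated counts. Deviations from the genotype means of log2(CPM + 1) correlated at 0.473 between the libraries numbered 1 and at 0.616 between those numbered 3. Those numbered 2 correlated at only 0.124. Deviations within a genotype are tied to each other through its mean, so these values are not independent. The titles give the numbers without saying what they mark, and *ZK3*-WT replicate 1 correlated at 0.289 with *ZK3*-KO replicate 2.

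The alternatives were DESeq2 1.42.0, library totals, upper-quartile factors, 2 other filters (at least 1 read in all, at least 10 reads in every library), limma on log2(CPM + 1) and on log2(TPM + 1), the replicate number as a block, and each library left out in turn. Leaving out libraries from the summed metallothionein fit was added after seeing the data.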

Additional observations from a re-analysis of the deposited data

How the results depend on the processing

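With all libraries, no fit called a member, and leaving out 1 library gave 0 to 1 called members, the 1 being *SLC39A10* without *ZK3*-KO replicate 3. *MT1X*, *MTF1*, *SLC30A1*, *SLC39A4* and *SLC39A10* kept their direction in all 14 alternatives, but *SLC39A10* went from 0.44 to 0.20 with limma on log2(CPM + 1), 0.10 with limma on log2(TPM + 1) and 0.20 with the replicate block. *MT2A* turned from 0.18 to -0.038 with limma on log2(CPM + 1), to -0.16 with limma on log2(TPM + 1), where the median of all genes was -0.082 instead of 0.018, and to -0.042 with the replicate number as a block. The block changed no member's call, and of the listed genes it ended that of *SLC39A9*. Leaving out each library gave log2 fold changes from -0.65 to 0.50 for *MT2A*, from -0.62 to 0.21 for *MT1E*, from -0.020 to 0.39 for *MT1F*, from -0.35 to 0.0031 for *SLC39A6*, from -0.70 to -0.33 for *MT1X*, from 0.15 to 0.88 for *SLC39A10*, and from -0.64 to 0.39 for the summed metallothioneins, for which the median of the 4 genes fitted singly was 0.05. *MT1E* was above 0 when wild type replicate 3 or knockout replicate 1 or 2 was left out, and *MT1F* was below 0 without wild type replicate 2 or knockout replicate 3.

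Over all genes, 376 were called, 1506 with DESeq2, and 49 to 2858 with a library left out. Called genes were higher in *ZK3*-KO cells in 39.9% of cases, in 19.2% with limma on log2(TPM + 1), and in 19.3% to 49% with a library left out. Of 66 other listed genes, 1 was called (*SLC39A9*), 4 with DESeq2 (*SLC39A9*, *PGF*, *HSPA1A* and *HSPA1B*), 0 with library totals, upper-quartile factors, no filter beyond 1 read, limma on log2(TPM + 1) or the replicate block, and 0 to 6 with a library left out. The causes were not tested. Low counts limit *MT1F*, with 91 to 139 reads, and *MT1G* had 0 reads in every library and was not tested.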

Other observations

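Copper, which metallothioneins also bind, is handled by a separate set of transporters and chaperones. Of 12 listed genes, 11 were tested, 0 met the edgeR threshold of FDR 0.05, 2 (*COX17* and *COMMD1*) had an unadjusted p under 0.05, where 18.4% of all genes did, and the median log2 fold change was 0.11. *COX17*, a copper chaperone for cytochrome oxidase, had the lower FDR of the 2 genes with the largest differences and was above every *ZK3*-WT library in all 3 *ZK3*-KO libraries, as were 12.7% of all genes (14.1 ± 2.76 and 21.2 ± 1.95 CPM, SD, n = 3 each, log2 fold change 0.58, FDR 0.170). *SCO2* had a log2 fold change of 0.61 (FDR 0.295), and *SOD1*, the most abundant per length with a mean TPM of 453, had 0.027 (FDR 0.969 in edgeR's test).

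Glucocorticoids are a further known inducer of *MT2A*. Of 10 listed genes of the glucocorticoid response, 9 were tested, 0 met the edgeR threshold of FDR 0.05, 1 (*NR3C1*) had an unadjusted p under 0.05, against 18.4% of all genes, and the median log2 fold change was -0.18. *TSC22D3* gave 40.5, 67.7 and 72.3 CPM in the wild type and 20.7, 7.37 and 80.0 CPM in the knockout, replicates 1 to 3 in order. Its log2 fold change was -0.74 (FDR 0.645) and -2.10 without *ZK3*-KO replicate 3 (FDR 0.0146 in edgeR's test). *ERRFI1* had -0.68 (FDR 0.514) and -1.29 (FDR 0.0450), *KLF9* -0.68 (FDR 0.348) and -0.97 (FDR 0.0656), and *FKBP5* -0.18 (FDR 0.769) and 0.088 (FDR 0.694), each with all libraries and then without *ZK3*-KO replicate 3. Of the 9, *TSC22D3* and *ERRFI1* were called without that library, where 15.1% of all genes were. *COMMD1* and *NR3C1* were named after their values were seen.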
